A study of Mus musculus with 6 samples.

Results

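Bone morphogenetic protein (BMP) genes were followed in bulk RNA-seq libraries of parietal bone from newborn C57BL/6 mice. The set held 10 of the 44556 gene symbols in the count tables, each matched by its exact symbol. It comprised 5 ligand genes (*Bmp2*, *Bmp4*, *Bmp5*, *Bmp6* and *Bmp7*), 2 antagonist genes (*Nog* and *Grem1*) and 3 target genes (*Id1*, *Id3* and *Smad6*). All 10 passed the filter on low counts, *Grem1* only through the genotype where it was higher.

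There were 3 OsxCre libraries and 3 OsxCre;Stat3fl/fl libraries, prepared from littermates. Both genotypes carried Cre recombinase driven by the promoter of Osx (*Sp7*), which is active in osteoblast precursors, and OsxCre;Stat3fl/fl mice also carried *Stat3* alleles with loxP sites around exons 18, 19 and 20. Only Osx-expressing cells and their descendants can lose *Stat3* in this model, whereas the RNA came from all cells of the dissected tissue. The comparison asked how deletion of *Stat3* in the osteoblast lineage affects gene expression in newborn calvaria.

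BMPs are secreted ligands of the TGF-beta superfamily and were first known for inducing bone. They bind paired type I and type II receptors, which phosphorylate Smad1, Smad5 and Smad9, and these enter the nucleus with Smad4. Noggin and gremlin bind the ligands outside the cell. The Id genes encode inhibitors of basic helix-loop-helix factors and respond quickly to BMP, and *Smad6* encodes an inhibitory Smad that feeds back on the receptors.

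The libraries held between 8193651 and 12080044 counts, and 3 counts, taken as the smallest reliable value, were worth 0.252 to 0.368 CPM (counts scaled to a common, TMM-adjusted library size). Such floors cover counting error only. *Stat3* had 149.9, 135 and 141 CPM in OsxCre and 153, 155 and 155 CPM in OsxCre;Stat3fl/fl (log2 fold change 0.12, SE 0.07, adjusted p = 0.442, edgeR's quasi-likelihood test). The gene total was thus not lower in the libraries labelled OsxCre;Stat3fl/fl, and counts per gene do not resolve exons 18, 19 and 20. *Xist* had 895 to 1074 CPM by library total while *Ddx3y* and *Kdm5d* were at 0 counts in all 6 libraries, although a legend of the study describes male newborns. Osteoblast markers were abundant in every library, at a summed 23710 to 34900 CPM over 10 genes, or 2822 to 4177 CPM without *Col1a1* and *Col1a2*. Over all genes tested, 50.7% of log2 fold changes were negative and 8.34% of genes were lower at an unadjusted p under 0.05. Of the 10 osteoblast markers, 8 log2 fold changes were negative, and 2 were lower at that p, *Ibsp* (-0.66, adjusted p = 0.0213, edgeR) and *Alpl* (-0.54, adjusted p = 0.0578). Their part in the values of the BMP genes was not tested. Of 8 marker lists for bone and other cell types, summed CPM was separate between genotypes for skeletal muscle and for suture mesenchyme and fibroblasts (higher in OsxCre;Stat3fl/fl) and for blood cells (lower). Without its most abundant gene each list but that of muscle overlapped, so the mesenchyme and blood separations rested on *Postn* and *Hba-a1*. The libraries numbered 2 stood apart in neuron markers, whose summed level was 386.9 CPM in OsxCre library 2, 30.4 CPM in OsxCre;Stat3fl/fl library 2 and 77.7 to 296 CPM in the others.

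None of the 10 genes passed an adjusted p of 0.05 in edgeR's quasi-likelihood test, against 1.26% of the 15600 genes tested. At an unadjusted p under 0.05, 3 of the 10 (*Id1*, *Grem1* and *Bmp4*) were higher in OsxCre;Stat3fl/fl and 0 lower, where 8.03% of all genes were higher and 8.34% lower. The same 3 genes were higher in every OsxCre;Stat3fl/fl library than in every OsxCre library, a separation seen in 10.8% of all genes, and 0 were separate in the lower direction, where 12.2% of all genes were. *Grem1* passed the filter on low counts only through its OsxCre;Stat3fl/fl libraries. Its place in both counts was thus favoured by the filter and is no support for a direction. By sign alone 8 of the 10 log2 fold changes were positive, with a median of 0.17, while the median over all tested genes was 0.00 and 50.7% of them were negative. That count depends on values near 0. *Id3* (0.01) and *Bmp5* (0.03) turned negative when scaled by library totals, and the signs of *Smad6* and *Nog* also changed in some fits with a library left out. Without both libraries numbered 2, *Id1* and *Grem1* alone of the 10 were higher at the unadjusted p, and 0 were lower. The share of all genes was not taken without those libraries.

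**Figure D1:**
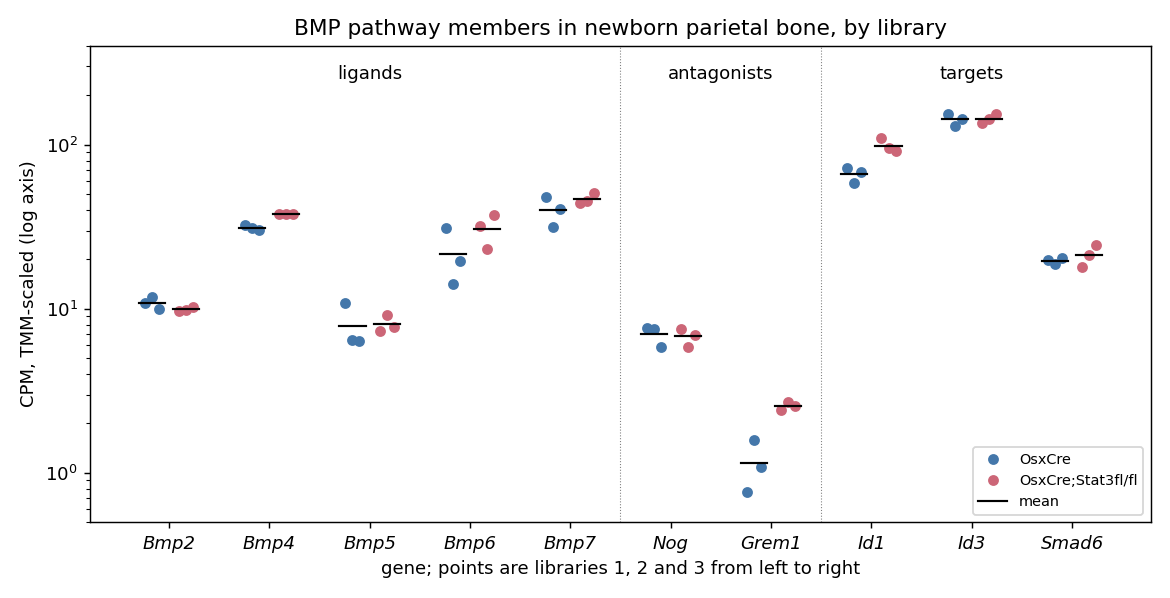
CPM of the 10 BMP genes on a log axis, grouped as ligands, antagonists and targets. Each point is 1 library (OsxCre blue, OsxCre;Stat3fl/fl red) and each bar the mean of 3. The red points lie wholly above the blue points for *Bmp4*, *Grem1* and *Id1* and overlap them for the other 7 genes.

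To compare levels between genes, CPM were divided by exon length in kb. In OsxCre the order ran from *Id3*, at 79.8 ± 6.31 CPM per kb (SD, n = 3), and *Id1*, at 57.1 ± 6.15, through *Bmp4* (14.0 ± 0.479), *Bmp7* (9.995 ± 2.06), *Smad6* (6.26 ± 0.248) and *Bmp6* (6.02 ± 2.44) to *Nog* (3.65 ± 0.511), *Bmp2* (3.05 ± 0.266), *Bmp5* (1.96 ± 0.636) and *Grem1* (0.276 ± 0.100). The library ranges of *Smad6* and *Bmp6*, of *Bmp6* and *Nog*, and of *Nog* and *Bmp2* overlapped, so these neighbours were not told apart. Other neighbours were separate. In OsxCre;Stat3fl/fl *Id1* came first, at 85.1 ± 8.21 CPM per kb, with *Id3* at 80.6 ± 4.95, and *Bmp6* (8.60 ± 2.03) came before *Smad6* (6.77 ± 1.04). Both pairs overlapped between libraries and were not told apart. The remaining genes kept their places in the order. The Id genes thus stood far above the ligands, and *Nog* far above *Grem1*, in both genotypes.

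Promoters were read for the 10 genes from RefSeq (GRCm38.p6, 250 bases before to 50 after the start), and 6 were found. Then 3 short motifs were searched on both strands. They were GGCGCC, a GC-rich element bound by BMP Smads, found in 3233 (12%) of 27025 promoters, GTCTAGAC, a palindromic Smad element, found in 0.211%, and TTCNNNGAA, an element bound by STAT factors, found in 8.47%. GGCGCC was found in *Grem1*, with its first base at -78, and GTCTAGAC in *Smad6*, with its first base at -4, counted from the start used for each window. For *Smad6* that start, 64022059, lies 26 bases inside the annotated gene span, so the match is within the span, while the starts of the other 5 coincide with the ends of theirs. None of the 3 was found in *Bmp4*, *Bmp5*, *Bmp6* or *Id3*, and TTCNNNGAA was in none of the 6. The windows of *Grem1* and *Smad6* are given for the motif and that of *Bmp4* as the most abundant ligand gene, each 5′ to 3′ on the gene's strand with the motif in capitals. They lie on the minus strand at chr2:113758599-113758898, chr9:64022010-64022309 and chr14:46390620-46390919.
*Grem1*: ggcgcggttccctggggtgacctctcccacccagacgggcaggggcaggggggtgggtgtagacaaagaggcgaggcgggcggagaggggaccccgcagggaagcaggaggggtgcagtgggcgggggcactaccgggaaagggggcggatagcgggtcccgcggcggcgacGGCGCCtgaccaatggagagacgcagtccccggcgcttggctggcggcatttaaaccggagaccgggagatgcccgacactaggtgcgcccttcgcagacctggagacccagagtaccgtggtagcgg
*Smad6*: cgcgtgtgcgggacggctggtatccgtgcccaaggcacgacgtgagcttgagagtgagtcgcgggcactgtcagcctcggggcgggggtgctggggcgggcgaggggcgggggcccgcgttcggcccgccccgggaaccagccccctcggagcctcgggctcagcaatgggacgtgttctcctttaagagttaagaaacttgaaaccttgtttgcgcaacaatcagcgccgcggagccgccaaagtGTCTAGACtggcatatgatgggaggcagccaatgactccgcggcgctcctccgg
*Bmp4*: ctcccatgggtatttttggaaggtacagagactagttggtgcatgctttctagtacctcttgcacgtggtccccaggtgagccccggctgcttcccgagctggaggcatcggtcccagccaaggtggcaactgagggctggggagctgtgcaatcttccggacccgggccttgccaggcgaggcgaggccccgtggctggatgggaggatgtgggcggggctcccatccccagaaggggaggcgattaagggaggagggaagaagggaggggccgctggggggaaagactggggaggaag
A match describes the letters in this window, and binding was not measured.

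*Bmp4*, on chromosome 14 (46383525 to 46390669, GRCm38), was the ligand gene with the most reads per kb. It encodes a ligand with roles in early skeletal patterning and osteoblast differentiation. Its counts were 339, 314 and 359 in the OsxCre libraries and 317, 307 and 323 in the smaller OsxCre;Stat3fl/fl libraries, or 32.3, 31.1 and 30.1 CPM against 38.1, 37.6 and 37.8 CPM. Every OsxCre;Stat3fl/fl library was above every OsxCre library. The means were 31.2 ± 1.07 and 37.8 ± 0.222 CPM (SD, n = 3), a ratio of 1.21. The log2 fold change was 0.28 (SE 0.08, 95% interval 0.10 to 0.46), and edgeR's quasi-likelihood test gave an adjusted p = 0.139. The coefficient of variation within OsxCre;Stat3fl/fl, 0.587%, was below the 5.63% that counting error alone gives at these counts, so the 3 libraries lay closer together than their depth can resolve. Scaled by library totals, the log2 fold change was 0.23.

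*Bmp7*, on chromosome 2 (172868012 to 172940321), encodes a ligand also known as osteogenic protein 1. It had 48.2, 31.7 and 40.5 CPM in OsxCre and 44.3, 45.4 and 50.6 CPM in OsxCre;Stat3fl/fl. OsxCre library 1 lay among the OsxCre;Stat3fl/fl values and OsxCre library 2 below all others. Its log2 fold change was 0.22 (SE 0.15, 95% interval -0.12 to 0.56, adjusted p = 0.516, edgeR), and it moved between 0.07 without OsxCre library 2 and 0.38 without OsxCre library 1.

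*Bmp6*, on chromosome 13 (38345716 to 38500314), encodes a ligand close to *Bmp5* and *Bmp7* in sequence and known both in bone and in iron regulation. It varied most among the ligands, with 31.2, 14.1 and 19.5 CPM in OsxCre and 32.1, 23.0 and 37.4 CPM in OsxCre;Stat3fl/fl. Library 2 was the lowest of its genotype in both groups, and OsxCre library 1 was above OsxCre;Stat3fl/fl library 2. The highest OsxCre library held 2.22 times the lowest, a coefficient of variation of 40.6% where counting error gives 6.54%. Between genotypes the log2 fold change was 0.52 (SE 0.29, 95% interval -0.16 to 1.19, adjusted p = 0.430, edgeR), and it moved between 0.28 without OsxCre library 2 and 0.88 without OsxCre library 1.

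*Bmp2*, on chromosome 2 (133552159 to 133562896), encodes a ligand needed for fracture repair. It had 10.8, 11.8 and 9.90 CPM in OsxCre and 9.73, 9.81 and 10.3 CPM in OsxCre;Stat3fl/fl, and the ranges overlapped. The log2 fold change was -0.12 (SE 0.14, 95% interval -0.45 to 0.20, adjusted p = 0.724, edgeR). *Bmp5*, on chromosome 9 (75775365 to 75900316), whose loss gives the short ear mouse, had 10.8, 6.44 and 6.38 CPM against 7.33, 9.19 and 7.72 CPM. OsxCre library 1 was the highest of all 6. The log2 fold change of *Bmp5* was 0.03 (SE 0.25, 95% interval -0.54 to 0.61, adjusted p = 0.967, edgeR), and its sign depended on the libraries and the scaling. The intervals of both genes leave room for changes of either sign.

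The 5 ligand genes summed to 40.96, 30.7 and 33.4 CPM per kb in OsxCre and to 41.6, 39.7 and 44.8 CPM per kb in OsxCre;Stat3fl/fl. OsxCre library 1 lay above OsxCre;Stat3fl/fl library 2, so the totals overlapped. *Bmp4* held 40.5% ± 5.07 of that sum in OsxCre and 40.6% ± 2.43 in OsxCre;Stat3fl/fl (SD, n = 3), and *Bmp7* held 28.4% ± 2.38 and 27.7% ± 1.05. The mix of ligand transcripts was thus led by the same pair in both genotypes. The share of *Bmp6* was 16.8% ± 4.26 and 20.3% ± 3.68 and that of *Bmp5* 5.51% ± 0.96 and 4.80% ± 0.83. The share of *Bmp2* was between 7.45% and 10.8% in OsxCre and between 6.46% and 6.95% in OsxCre;Stat3fl/fl, without overlap. These shares were not tested, and a share falls when the other ligands are higher.

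**Figure D2:**
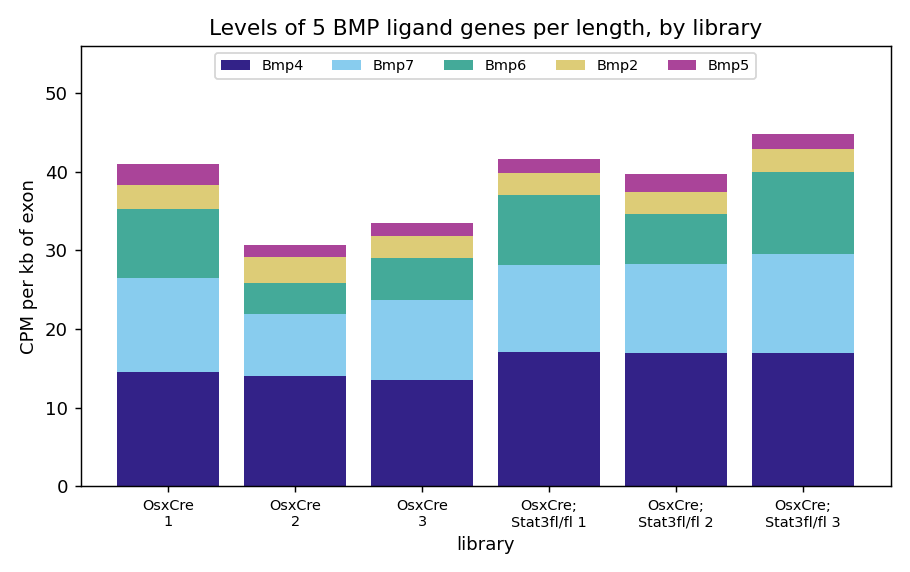
Stacked levels of the 5 BMP ligand genes in each library, in CPM per kb of exon. *Bmp4* and *Bmp7* form the larger part of every bar, and the OsxCre bars reach 30.7 to 40.96 while the OsxCre;Stat3fl/fl bars reach 39.7 to 44.8.

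*Grem1*, on chromosome 2 (113748675 to 113758648), encodes gremlin 1, which binds BMP2, BMP4 and BMP7. Its promoter was the 1 of the 6 read that held GGCGCC. It was the least abundant of the 10 genes, with 8, 16 and 13 counts in OsxCre and 20, 22 and 22 counts in OsxCre;Stat3fl/fl. These were 0.761, 1.59 and 1.09 CPM against 2.40, 2.70 and 2.57 CPM, and the genotypes did not overlap. The means were 1.15 ± 0.415 and 2.56 ± 0.148 CPM (SD, n = 3), a ratio of 2.23. OsxCre;Stat3fl/fl over OsxCre gave a log2 fold change of 1.15 (SE 0.32, 95% interval 0.41 to 1.90), the largest of the 10, and edgeR's quasi-likelihood test gave an adjusted p = 0.139. Leaving out each library in turn gave 0.94 to 1.44. *Grem1* reached the level of the low-count filter in all OsxCre;Stat3fl/fl libraries but not in all OsxCre libraries. It was thus tested only through the genotype where it was higher. Counting error alone gives a coefficient of variation of 28.5% in OsxCre and 21.7% in OsxCre;Stat3fl/fl at these counts, so the observed 5.79% in OsxCre;Stat3fl/fl is below what the depth can resolve.

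*Nog*, on chromosome 11 (89300638 to 89302559), encodes noggin, an antagonist that helps keep cranial sutures open. It had 7.61, 7.53 and 5.87 CPM in OsxCre and 7.57, 5.88 and 6.90 CPM in OsxCre;Stat3fl/fl. Both ranges covered nearly the same values. On the log2 scale the fold change was -0.04 (SE 0.19, 95% interval -0.49 to 0.40, adjusted p = 0.942, edgeR). The intervals of *Nog* and *Grem1* did not overlap, but the difference between the genes was not tested.

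Markers of suture mesenchyme and fibroblasts stood at a summed 2236 to 2552 CPM in OsxCre and 2603 to 2895 CPM in OsxCre;Stat3fl/fl, without overlap. *Postn* made up most of that sum, and the other 5 markers overlapped, at 303 to 336.5 CPM in OsxCre and 283 to 337 CPM in OsxCre;Stat3fl/fl. At an unadjusted p under 0.05, 8.03% of all genes were higher and 8.34% lower. Of the 6 markers, 2 were higher (*Pdgfra*, log2 fold change 0.79, and *Postn*, 0.29) and 1 lower (*Twist1*, -0.25) at that p, 0 passed the adjusted p, and none was at 0. Their part in the *Grem1* and *Bmp4* values was not tested. In bulk tissue, fewer or more cells of a type and a different amount of RNA per cell cannot be told apart.

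*Id1*, on chromosome 2 (152736251 to 152737410), had the smallest p of the 10 genes and came 206th of the 15600. Its counts were 757, 588 and 816 in OsxCre and 911, 778 and 780 in OsxCre;Stat3fl/fl, or 72.0, 58.3 and 68.5 CPM against 109, 95.4 and 91.2 CPM. All 3 OsxCre;Stat3fl/fl libraries were above all 3 OsxCre libraries. The means were 66.3 ± 7.13 and 98.7 ± 9.53 CPM (SD, n = 3), a ratio of 1.49. The log2 fold change was 0.57 (SE 0.11, 95% interval 0.33 to 0.82), and edgeR's quasi-likelihood test gave an adjusted p = 0.0542, which missed 0.05. The same comparison gave adjusted p = 0.0114 without the filter on low counts and adjusted p = 0.00102 in DESeq2's Wald test. Leaving out each library in turn gave log2 fold changes of 0.49 to 0.64 with adjusted p-values of 0.0974 to 0.146, and leaving out both libraries numbered 2 gave 0.51 (adjusted p = 0.0918, edgeR).

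*Id3*, on chromosome 4 (136143822 to 136145392), is often induced together with *Id1*. It had 153, 131 and 144 CPM in OsxCre and 136, 143 and 154 CPM in OsxCre;Stat3fl/fl, with overlapping ranges. Its log2 fold change was 0.01 (SE 0.09, 95% interval -0.18 to 0.21, adjusted p = 0.959, edgeR), with a negative sign when scaled by library totals. The intervals of *Id1* and *Id3* did not overlap, but the difference between the genes was not tested. *Smad6*, on chromosome 9 (63953076 to 64022085), had 19.7, 18.8 and 20.4 CPM against 17.9, 21.3 and 24.4 CPM. Its promoter held GTCTAGAC. OsxCre;Stat3fl/fl libraries 1 and 3 lay on either side of all OsxCre libraries. Its log2 fold change was 0.11 (SE 0.13, 95% interval -0.20 to 0.42, adjusted p = 0.742, edgeR).

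Id genes are also BMP targets in endothelium, where *Acvrl1* encodes the type I receptor ALK1. *Acvrl1* had 68.5, 58.1 and 64.5 CPM in OsxCre and 75.7, 79.6 and 82.0 CPM in OsxCre;Stat3fl/fl, without overlap (log2 fold change 0.31, SE 0.08, adjusted p = 0.131, edgeR). Of 8 endothelial markers, 2 were higher at an unadjusted p under 0.05, where 8.03% of all genes were. These were *Tek* (log2 fold change 0.29) and *Tie1* (0.33), while 0 markers were lower and 0 passed the adjusted p. *Pecam1* had 0.26, *Cdh5* 0.03 and *Cldn5* -0.29. The markers summed to between 645.5 and 913.9 CPM in OsxCre and between 792 and 913 CPM in OsxCre;Stat3fl/fl, with overlap, and none was at 0. Their part in the *Id1* values was not tested.

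**Figure D3:**
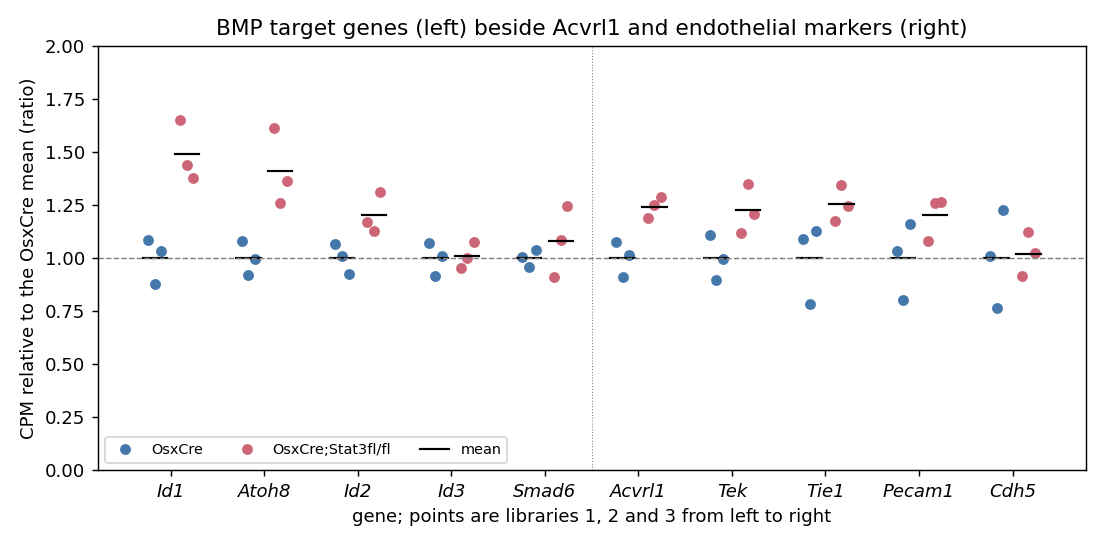
CPM divided by the OsxCre mean of each gene, for 5 BMP target genes (left) and for *Acvrl1* and 4 endothelial markers (right). The genes shown were picked from longer lists. Of the 9 other target genes, 3 had negative log2 fold changes and are not shown, and of the 8 endothelial markers 1, *Cldn5*. Each point is 1 library and each bar the mean of 3, with a mean ratio of 1.49 for *Id1*, 1.41 for *Atoh8* and 1.24 for *Acvrl1*, and of 1.01 for *Id3*.

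The rest of the BMP pathway was described by 58 further genes, of which 54 were tested. None passed the adjusted p in edgeR's quasi-likelihood test. At an unadjusted p under 0.05, 6 were lower and 6 higher, or 5 and 4 without both libraries numbered 2. Of all genes, 8.34% were lower and 8.03% higher at that p in the main comparison. That share was not taken without the libraries numbered 2. Of the 54, 9 were separate between genotypes in each direction, where 12.2% of all genes were separate and lower and 10.8% separate and higher. The median log2 fold change of the 54 was -0.03, with 31 negative and 23 positive, where 50.7% of all genes were negative.

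Among 11 receptors and co-receptors 9 log2 fold changes were negative, where 50.7% of all genes were. At an unadjusted p under 0.05, 3 were lower and 1 higher, against 8.34% and 8.03% of all genes. The receptor and co-receptor genes summed to 737 to 781 CPM in OsxCre and 624 to 708 CPM in OsxCre;Stat3fl/fl, without overlap. That separation rested on *Hfe2*, and the sum of the other genes overlapped between genotypes. The type I receptor gene *Bmpr1b* had 13.0, 10.2 and 12.2 CPM against 6.85, 6.74 and 8.65 CPM, without overlap (log2 fold change -0.67, SE 0.18, adjusted p = 0.123, edgeR). On the log2 scale *Acvr2b*, a type II receptor gene, differed by -0.47 (adjusted p = 0.161), *Bmpr1a* by 0.02 and *Bmpr2* by -0.13. The co-receptor gene *Hfe2* (hemojuvelin), known for its expression in skeletal muscle, had 204, 212 and 218 CPM against 126, 175 and 102 CPM (log2 fold change -0.65, SE 0.17, adjusted p = 0.128, edgeR). It passed the adjusted p without OsxCre;Stat3fl/fl library 2 (-0.88, adjusted p = 0.0239), without both libraries numbered 2, without the filter on low counts and in DESeq2. Skeletal muscle markers summed to 26630 to 28890 CPM in OsxCre and 31530 to 46870 CPM in OsxCre;Stat3fl/fl. Of the 8, 6 were higher and 1 lower at an unadjusted p under 0.05, against 8.03% and 8.34% of all genes. *Myh3* was higher and *Myh4* lower at the adjusted p, and none of the markers was at 0. Their part in the *Hfe2* values was not tested.

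Among 18 further extracellular modulators tested, 2 were higher and 2 lower at an unadjusted p under 0.05, against 8.03% and 8.34% of all genes. *Chrd*, which encodes the antagonist chordin, had 36.8, 34.4 and 32.7 CPM against 45.8, 41.4 and 40.3 CPM (log2 fold change 0.30, SE 0.09, adjusted p = 0.164, edgeR). *Nbl1*, another antagonist gene, had 0.28 (adjusted p = 0.199), and *Bmp1*, whose protease cleaves chordin and procollagen and is no BMP ligand, had -0.33 (adjusted p = 0.167).

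Of 10 other ligand genes 7 were tested and 0 reached an unadjusted p under 0.05. The log2 fold changes were 0.65 for *Gdf6* (adjusted p = 0.306) and -0.54 for *Gdf5*, a joint ligand (adjusted p = 0.383), both at under 3 CPM. *Bmp10* had 0 counts in all 6 libraries. Of 9 Smads and Smad regulators, *Smurf2*, a ubiquitin ligase gene, was higher at an unadjusted p under 0.05 (log2 fold change 0.17, adjusted p = 0.288), and *Ski* had 0.12 (adjusted p = 0.486). Of 9 other target genes 2 were higher and 1, *Dlx3*, was lower at an unadjusted p under 0.05, against 8.03% and 8.34% of all genes. The log2 fold change of *Dlx3* was -0.49 (adjusted p = 0.280) and -0.26 without OsxCre library 1 (adjusted p = 0.581). *Atoh8*, a BMP-responsive helix-loop-helix gene, had 18.8, 16.1 and 17.4 CPM against 28.1, 21.9 and 23.7 CPM (log2 fold change 0.50, SE 0.13, adjusted p = 0.121, edgeR), and *Id2* had 0.27 (adjusted p = 0.204). Both were higher in every OsxCre;Stat3fl/fl library than in every OsxCre library, as *Id1* was. Of the 9 other target genes, 3 were separate and higher and 2 separate and lower, *Dlx3* among the latter. Over all genes, 10.8% were separate and higher and 12.2% separate and lower.

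**Figure D4:**
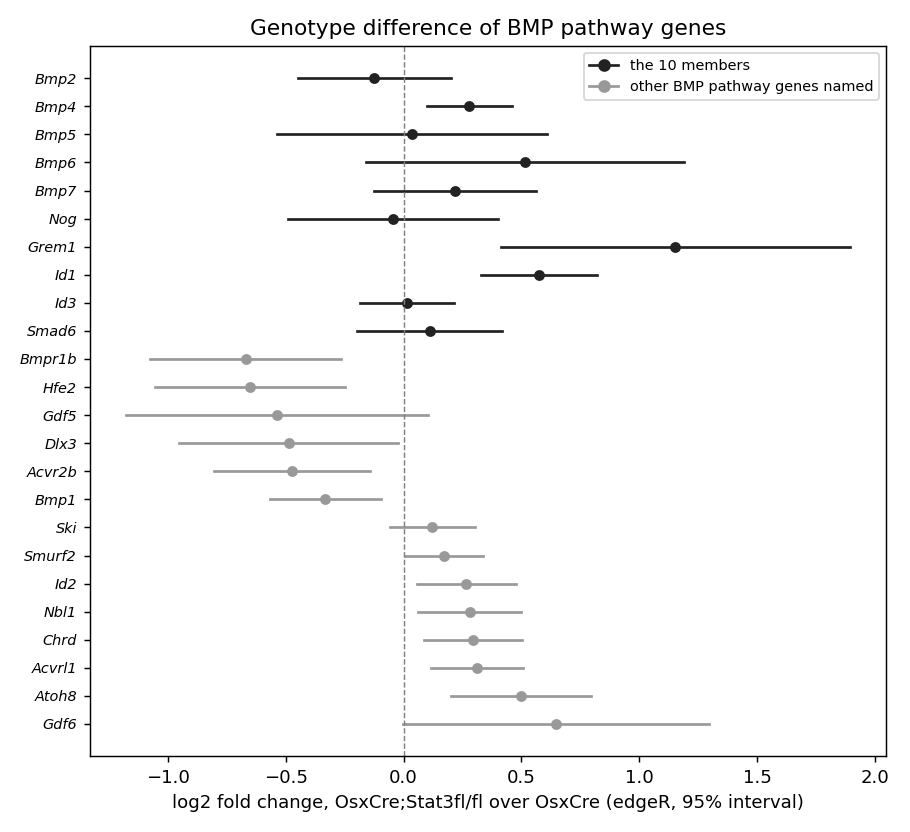
Log2 fold change, OsxCre;Stat3fl/fl over OsxCre, with 95% intervals from edgeR, for the 10 BMP genes (black) and other BMP pathway genes chosen by small p (grey). The grey genes are among the 2 of smallest p in each list or had an unadjusted p under 0.05. Most of their intervals thus lie off 0 by that choice. Of the 54 pathway genes tested, 6 were lower and 6 higher at that p, against 8.34% and 8.03% of all genes. The intervals of *Bmp4*, *Grem1* and *Id1* lie above 0 and those of *Bmpr1b* and *Hfe2* below 0, and among the grey genes those of *Chrd*, *Atoh8*, *Id2*, *Smurf2*, *Acvrl1* and *Nbl1* also lie above 0 and those of *Acvr2b*, *Bmp1* and *Dlx3* below it, before adjustment over genes.

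The likeness of profiles was measured as the root mean square difference of centred log2(CPM + 1) over the 6 libraries, among 64 genes. The nearest gene to *Id1* was *Atoh8* (0.0813, where the median gene stood at 0.342), and the nearest to *Bmp4* was *Chrd* (0.0545, median 0.219). The nearest to *Grem1* was *Gdf6* (0.244) and to *Bmp6* was *Id4* (0.268), where the median genes stood at 0.454 and 0.481, since both vary more between libraries. For the others the nearest genes were *Fst* for *Bmp2* (0.0638), *Fstl1* for *Bmp5* (0.168), *Nbl1* for *Bmp7* (0.0992), *Bmp2* for *Nog* (0.118), *Smad5* for *Id3* (0.0729) and *Bmpr1a* for *Smad6* (0.0858). Genes that vary little all lie close by this measure, which was not tested.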

How the data were processed

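RNA-seq libraries from parietal bone of newborn mice, 3 per genotype, were grouped by the genotype in their labels. The authors deposited whole-number counts per gene symbol, without normalization. The labels' processing notes name HISAT2 and GRCm38, whereas the published methods describe TopHat and mm9. The counting program, annotation and strand setting are not given in the sources used here, so reads of overlapping genes may be shared. The labels list polyA RNA and the methods total RNA. The methods give 3 mice per genotype, which matches the number of libraries, although no source states that each library is 1 mouse.

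Counts were compared in R 4.3.3 with edgeR 4.0.16 (filterByExpr, minimum count 10 and minimum total 15, TMM scaling, quasi-likelihood test, two-sided, Benjamini-Hochberg over 15600 genes). The standard error was the log2 fold change over the square root of F. The fit was run on simulated counts holding changes of 2-fold only, so that run does not show how well smaller differences are found. Alternatives were other scalings, other filters, DESeq2 1.42.0, limma-voom (limma 3.58.1), a replicate block, and leaving out each library. Leaving out both libraries numbered 2, the most abundant gene of a marker list, or *Hfe2* from the receptor sum was chosen after seeing the data. The gene set and all lists were chosen with earlier results of these data known. Genes named were *Stat3*, the 10 genes, the 2 of smallest p in each pathway list, each nearest profile and markers, and 1 gene that the rule names is not reported here. *Bmp1*, *Acvr2b*, *Acvrl1*, *Nbl1*, *Dlx3*, *Bmpr1a* and *Bmpr2* as values were chosen after their values were seen. Positions and promoters came from RefSeq (GRCm38.p6) and exon lengths from GENCODE on NCBIM37, all matched by symbol. Within-genotype library pairs differed by a chi-square per degree of freedom of 7.51 to 15.6, so none was a copy or resequencing of another of its genotype. This measure cannot tell separate preparations of the same tissue from separate mice, and pairs across genotypes were not compared.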

Additional observations from a re-analysis of the deposited data

How the results depend on the processing

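Over all genes, 75 were lower and 121 higher at the adjusted p. Lower genes numbered 114 with library totals, 178 without the filter on low counts, 235 in DESeq2 and 5 to 36 when each library was left out in turn. Higher genes numbered 250 without the filter, 304 in DESeq2, 7 to 67 when each library was left out and 231 without both libraries numbered 2. With the replicate number as a block, 1 gene was lower and 0 were higher. Deviations of same-numbered libraries correlated at -0.101, -0.518 and -0.085, so none was positive. The sources used here do not say what the replicate numbers mean. With 3 libraries per genotype, these correlations cannot decide whether same-numbered libraries were paired. For *Id1* the block gave 0.57 on the log2 scale (adjusted p = 0.122).

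Of the 10 genes, 1 (*Id1*) passed without the filter (log2 fold change 0.57) and 1 in DESeq2 (0.58). At an unadjusted p under 0.05, 3 to 5 of them were higher with 1 library left out, 5 without OsxCre library 1 (*Bmp6* and *Bmp7* added), and 2 without both libraries numbered 2. Of the other pathway genes, 2 were lower at the adjusted p without the filter (*Hfe2* among them), 3 in DESeq2 (*Hfe2* and *Bmp1* among them), 0 to 1 with 1 library left out, and 1 without both libraries numbered 2 (*Hfe2*, -0.89). Unadjusted, 4 to 8 were lower and 3 to 7 higher with 1 library left out, 3 higher without OsxCre library 2, OsxCre library 3 or OsxCre;Stat3fl/fl library 3, 4 lower without OsxCre library 1, and 4 higher with library totals or without both libraries numbered 2. The share of all genes at an unadjusted p was taken in the main comparison only. The unadjusted counts of this paragraph thus cannot be read against all genes at the same setting.

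The sign of *Bmp5* turned with library totals (-0.015), without both libraries numbered 2 (-0.19) and among the leave-one-out values (-0.10 to 0.34). *Id3* turned with library totals (-0.030), without both libraries numbered 2 (-0.04) and among the leave-one-out values (-0.048 to 0.073). *Nog* ranged from -0.16 to 0.05 with 1 library left out and was 0.10 without both libraries numbered 2, and *Smad6* ranged from -0.0018 to 0.22. The other 6 of the 10 genes kept their sign under all alternatives run, as did *Bmpr1b* and *Hfe2*. The causes were not tested. Depth limits *Grem1* most, at 8 to 22 counts.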
